A study of Mus musculus with 27 samples.

Results

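The small heat shock proteins examined here were the 7 genes Hspb1, Hspb2, Hspb3, Cryab, Hspb6, Hspb7 and Hspb8, taken by symbol from a count table of 33924 gene symbols. The members were selected on their levels in the same 27 libraries, so every level, difference and call given for them is a description, and nothing rests on the calls. All 7 symbols were in the table. In the fit of the 24 tumor line libraries 6 of the 7 passed the filter on low counts, and Hspb3 did not. In the fit that also held the wildtype libraries all 7 passed.

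Messenger RNA was sequenced in 27 mouse thyroid libraries in 9 groups of 3. Of these, 24 came from 12 tumor cell lines, all of which carry the mutant Braf allele Braf(V600E): 3 lines also had a Smarcb1 knockout (KO), 3 an Arid1a KO, 3 an Arid2 KO, and 3 had Braf(V600E) alone (called Braf lines here). Smarcb1, Arid1a and Arid2 encode subunits of SWI/SNF, an ATP-driven chromatin remodeling complex. Each line was measured after 8 days with 300 nM CH5126766 (CKI), a compound that inhibits both RAF and MEK, and with vehicle, 40% Trappsol. The labels mention bovine TSH, and their wording does not settle whether the vehicle arm received it as well as the CKI arm. The lines were grown out of dissected tumors, and nothing in the sources used here gives the age of the mice, the driver of the knockouts or the clonality of the lines. The 3 remaining libraries are marked wildtype (WT) with no treatment, although their source is also given as a tumor cell line. Their summed level of 8 thyroid follicular cell markers was 229000 to 348000 CPM (counts scaled to a library of 1000000), against 33.1 to 982 CPM in the tumor lines, and 4 adipocyte markers summed to 912 to 2760 CPM, against at most 1.81 CPM. WT libraries were therefore set only against Braf vehicle libraries.

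Small heat shock proteins are chaperones that need no ATP. They share an alpha-crystallin domain, assemble into oligomers, and hold unfolding proteins in a state from which the ATP-driven Hsp70 and Hsp90 systems can refold them or pass them on for degradation. Several are abundant in heart, muscle and lens, where they bind cytoskeletal proteins, and some are induced by stress through the transcription factor Hsf1, which binds heat shock elements made of inverted GAA units.

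Levels are CPM on TMM-scaled library sizes (TMM is a trimmed mean of log ratios between libraries). Total counts ran from 18417255 to 27257703 per library, except for 2 Smarcb1 KO libraries under CKI, those of BS53958 (11684983) and BS53965 (2884130). A count of 0 allows up to 3 counts, which is 0.247 CPM in BS53958 CKI, 0.89 CPM in BS53965 CKI and 0.106 to 0.161 CPM in every other library, for counting error only. The Smarcb1 transcript stood at 0.123 to 3.26 CPM in Smarcb1 KO CKI libraries and 0.0475 to 1.16 CPM in Smarcb1 KO vehicle libraries, against 67.9 to 93.8 CPM in Braf lines. The Arid1a transcript was at 62.7 to 96.1 CPM in Arid1a KO lines, against 118 to 139 CPM in Braf lines. Arid2 transcript levels overlapped, at 78.2 to 175 CPM in Arid2 KO lines against 87.9 to 130 CPM in Braf lines, so that they do not check the Arid2 label. The 3 lines of a genotype are its replicates. Overlap of groups is given as a description only, because the share of all genes whose groups lay apart was not counted. Changes are log2 ± SE from edgeR's quasi-likelihood F test. The SE was worked back from that test, as the absolute log2 change over the square root of F. For groups at or near 0 it does not measure precision. A gene is called where its Benjamini-Hochberg adjusted p over all genes tested was under 0.05.

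Promoters are shown for 3 members that differ in how they behaved in Smarcb1 KO lines: Hspb1 and Hspb8, which were near or at 0, and Hspb6, which was present in every library. The 250 bases before the start site are RefSeq sequence of GRCm38.p6, another build than the mm9 named for the counts. Capitals mark matches to the heat shock element GAANNTTC, searched on both strands and identical to its own reverse complement.
Hspb1, chr5:135887669-135887918, plus strand: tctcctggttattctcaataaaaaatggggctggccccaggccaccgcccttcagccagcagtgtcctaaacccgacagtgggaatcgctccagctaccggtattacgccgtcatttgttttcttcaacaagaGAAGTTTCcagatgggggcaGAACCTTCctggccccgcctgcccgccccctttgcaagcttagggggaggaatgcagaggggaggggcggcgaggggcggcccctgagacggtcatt
Hspb8, chr5:116422865-116423114, minus strand: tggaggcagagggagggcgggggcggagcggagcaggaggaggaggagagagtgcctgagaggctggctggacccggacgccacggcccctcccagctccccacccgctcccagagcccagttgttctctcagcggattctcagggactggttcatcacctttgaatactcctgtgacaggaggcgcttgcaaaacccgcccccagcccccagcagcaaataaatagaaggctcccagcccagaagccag
Hspb6, second of its start sites, chr7:30553051-30553300, plus strand: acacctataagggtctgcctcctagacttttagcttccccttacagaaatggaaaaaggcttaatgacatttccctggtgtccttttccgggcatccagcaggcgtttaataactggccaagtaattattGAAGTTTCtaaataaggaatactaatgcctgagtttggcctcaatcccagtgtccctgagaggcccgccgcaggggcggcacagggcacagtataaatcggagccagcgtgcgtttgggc
Hspb1 held 2 elements, whose first bases lay 117 and 97 bases before the start site. The Hspb6 start shown held 1 element at 120 bases and a TATAAA box at 29 bases, while the other Hspb6 start in the RefSeq table held neither. The Hspb8 window and that of Hspb7, which is not shown, held no GAANNTTC. Hspb3, also not shown, had 1 such element at 224 bases and TATAAA at 11 bases. GAANNTTC occurred in 6.69% of 32817 promoter windows of this length, and TATAAA in 12.4%. The alternative element TTCNNGAA, in 7.16% of windows, and the AP-1 site TGANTCA, in 6.75%, were in none of the windows of these 5 genes. These matches describe the letters of the windows only. Hspb2 and Cryab had no entry in the promoter table.

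Cryab, Hspb1, Hspb2 and Hspb8 were far lower in Smarcb1 KO lines than in Braf lines, in vehicle and under CKI. Of the 6 members tested, these 4 were called lower and none higher in vehicle, where 18.1% of all 15634 genes were called in either direction. Under CKI the same 4 were called lower, with 23.1% of all genes called. The members' median log2 difference was -5.59 in vehicle, beside -0.02 over all genes, and the same value resulted with the genes at 0 placed at their bounds. Under CKI it was -4.22, or -4.21 with the count ratios of genes at 1 to 3 counts, beside -0.05 over all genes. When only the compared groups were fitted, Cryab alone was called in vehicle, and under CKI the call of Hspb1 was lost. Lines BS53958 and BS53965 are called shallow here, although only their CKI libraries had few counts. Without both, which leaves 1 Smarcb1 KO line, the call of Hspb8 was lost in vehicle, and those of Cryab and Hspb8 under CKI.

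**Figure D1:**
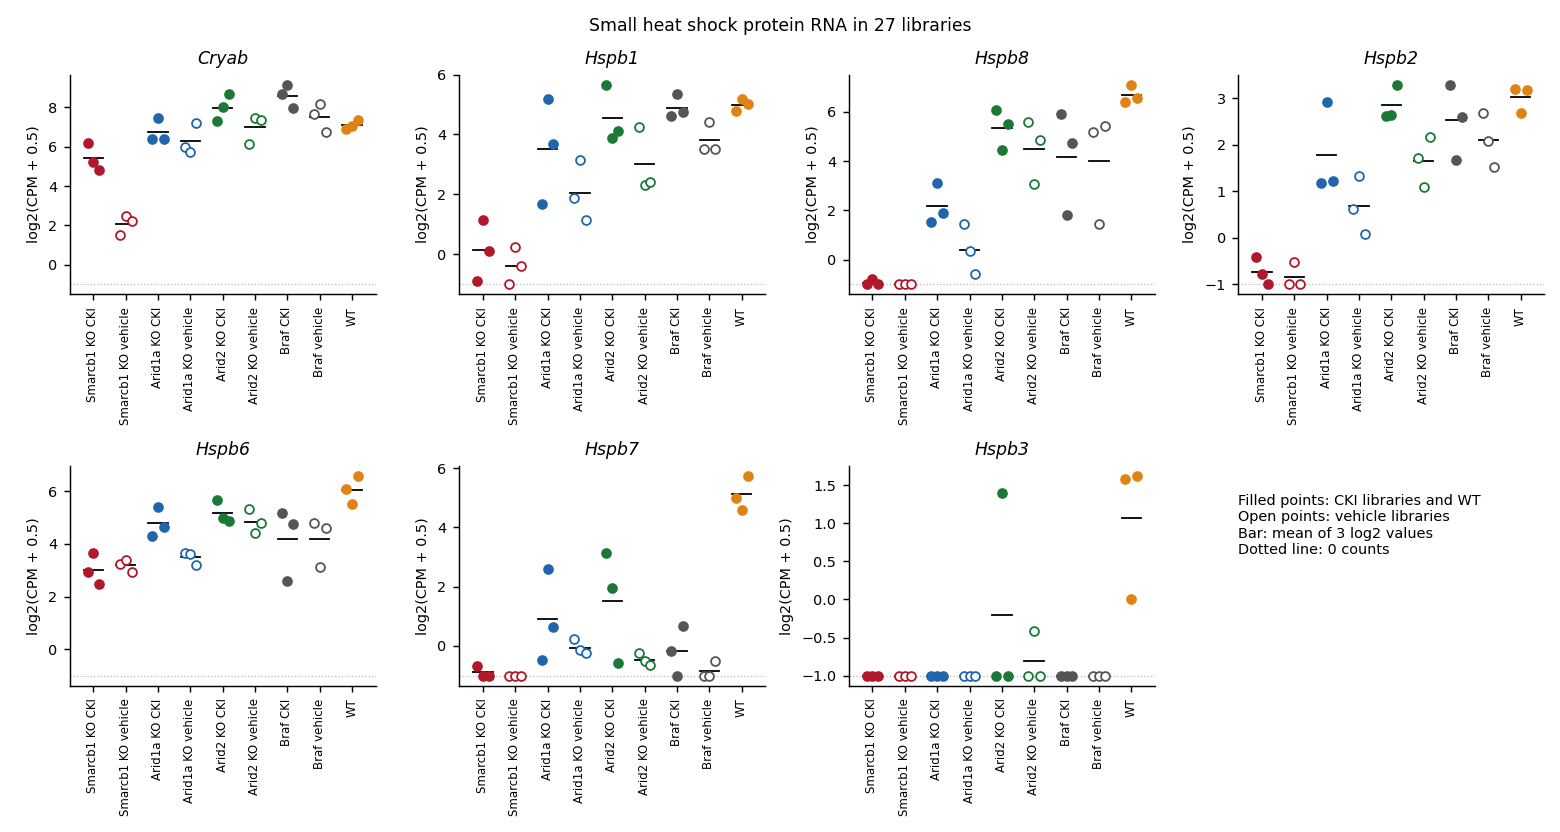
Level of each small heat shock protein as log2(CPM + 0.5) in all 27 libraries; points are libraries, filled for CKI and WT and open for vehicle, bars are means of 3 log2 values and the dotted line is 0 counts. Smarcb1 KO libraries lie below the Braf libraries of the same arm for Cryab, Hspb1, Hspb2 and Hspb8, and WT libraries lie above all tumor libraries for Hspb7.

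Cryab encodes alpha-B crystallin, a major protein of the lens that also binds desmin filaments in muscle. In vehicle it had 2.33, 5.04 and 4.22 CPM in Smarcb1 KO lines BS53736, BS53958 and BS53965, against 200, 288 and 108 CPM in Braf lines B47275, B48051 and B52482. All 3 Smarcb1 KO libraries lay below all 3 Braf libraries, and the fitted difference was -5.69 ± 0.65 on the log2 scale. Under CKI the Smarcb1 KO lines had 72.3, 36.7 and 27.9 CPM, against 404, 574 and 250 CPM in the Braf lines. The groups again did not overlap, at -3.17 ± 0.57. This call under CKI was lost, at -2.52, when both shallow lines BS53958 and BS53965 were left out.

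Hspb1 encodes Hsp27, a broadly expressed, stress-induced chaperone that binds actin. Its vehicle levels were 0, 0.679 and 0.258 CPM in the Smarcb1 KO lines, given in the same line order throughout, against 11, 20.9 and 11 CPM in the Braf lines. Under CKI it had 0.041, 1.73 and 0.593 CPM in Smarcb1 KO lines, against 23.8, 40.1 and 26.3 CPM in Braf lines. No Smarcb1 KO library reached any Braf library in either arm. The log2 differences were -5.49 ± 1.27 in vehicle and -5.26 ± 1.26 under CKI, from 20 and 24 counts in all across the 3 Smarcb1 KO libraries of each arm.

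Hspb8 encodes the partner of the co-chaperone Bag3 in the selective autophagy of damaged proteins. No read of it was counted in any Smarcb1 KO vehicle library, against 35.2, 2.21 and 42 CPM in Braf vehicle libraries. With 3 counts allowed over the Smarcb1 KO group, the gene was at least 580-fold lower. Under CKI the Smarcb1 KO libraries held 1 count in all, in BS53958, against 59.4, 3.04 and 26.4 CPM in the Braf libraries. The ratio was 8e-04, with a 95% counting interval from 2.03e-05 to 0.00446. Such an interval covers counting error only, not the spread between lines. Among the Braf lines themselves B48051 stood far below the other 2 in both arms.

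Hspb2, first described as a protein that binds and activates the myotonic dystrophy kinase, had 0, 0.194 and 0 CPM in Smarcb1 KO vehicle libraries, against 5.9, 3.76 and 2.37 CPM in Braf vehicle libraries. Under CKI it had 0.246, 0.0822 and 0 CPM in Smarcb1 KO lines, against 9.32, 2.71 and 5.59 CPM in Braf lines. The groups did not overlap in either arm, and the differences were -5.86 ± 1.08 in vehicle and -5.3 ± 1.06 under CKI. The Smarcb1 KO groups held 4 and 7 counts of it in all. Hspb2 lies next to Cryab on chromosome 9, on the opposite strand, and the annotated genes overlap there. Whether the counting used strand is not given in the sources used here, so reads of the stretch they share cannot be told apart.

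Hspb6 and Hspb7 were not called in Smarcb1 KO lines. Hspb6 encodes Hsp20, which is phosphorylated by cyclic nucleotide-dependent kinases during smooth muscle relaxation. It had 8.92, 9.99 and 7.14 CPM in Smarcb1 KO vehicle libraries, against 27.6, 8.24 and 24.2 CPM in Braf vehicle libraries. Under CKI it had 7.25, 12 and 5.04 CPM in Smarcb1 KO lines, against 35.9, 5.49 and 26.7 CPM in Braf lines. The low Braf value in each arm was that of B48051, and the groups overlapped because of it. The fitted differences of -1.21 ± 0.54 and -1.48 ± 0.55 were both called lower once B48051 was left out, at -1.57 and -1.95, and that under CKI also with DESeq2, at -1.49. Hspb6 overlaps Proser3 and Lin37 on the other strand of chromosome 7, which leaves its counts uncertain in the same way as those of Hspb2. Hspb7, a member typical of heart and skeletal muscle, was at 0 in the Smarcb1 KO vehicle libraries, against 4 counts in the Braf vehicle libraries. Under CKI the ratio of Smarcb1 KO to Braf was 0.155, with a counting interval from 0.0306 to 0.49, on 3 against 37 counts. The Braf counts were 11, 0 and 26, so the groups overlapped, and the interval does not cover that spread between lines.

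The summed level of 5 epithelial markers was lower in the vehicle libraries of all 3 knockouts than in those of Braf lines. It was 0.215 to 219 CPM in Smarcb1 KO vehicle libraries, against 1320 to 5600 CPM in Braf vehicle libraries, and 1.19 to 209 CPM in Smarcb1 KO CKI libraries, against 208 to 6450 CPM in Braf CKI libraries. In vehicle it was 316 to 335 CPM in Arid1a KO libraries and 84.4 to 888 CPM in Arid2 KO libraries. None of the 5 was at 0 in all libraries of a Smarcb1 KO group. The 9 smooth muscle markers summed to 21.9 to 292 CPM in Smarcb1 KO vehicle libraries and 123 to 129 CPM in Braf vehicle libraries, which overlapped. Under CKI they summed to 21.3 to 286 CPM in Smarcb1 KO libraries, below the 331 to 977 CPM of Braf libraries. The part of these cell states in the member differences was not tested.

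**Figure D2:**
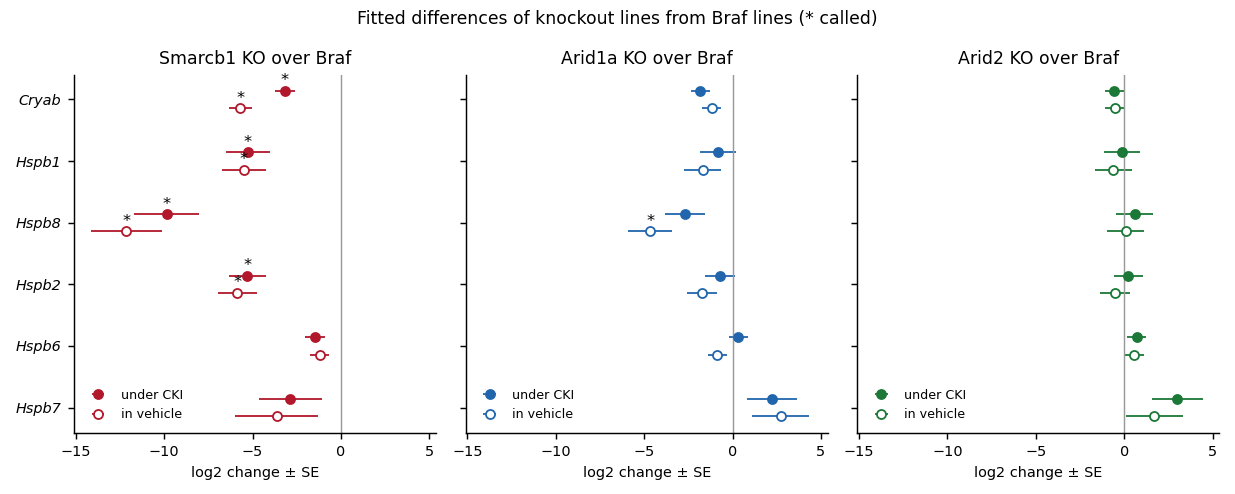
Fitted log2 difference ± SE of each knockout from Braf lines for 6 members, filled under CKI and open in vehicle, with an asterisk on called differences; all panels share the axis. In each arm 4 members are called lower in Smarcb1 KO lines, Hspb8 alone in Arid1a KO vehicle libraries, and no member in Arid2 KO lines; the Hspb8 and Hspb7 values of Smarcb1 KO rest on groups at or near 0 and their size is not a measured fold.

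Arid1a KO lines had less Hspb8 than Braf lines in vehicle. Of the 6 members tested 1, Hspb8, was called lower, where 3.63% of all genes were called. Hspb8 had 2.22, 0.762 and 0.171 CPM in Arid1a KO lines BA45198, BA47473 and BA49112, against 35.2, 2.21 and 42 CPM in Braf lines. BA45198 was level with B48051, so the groups touched, and the difference was -4.66 ± 1.24. The call was lost when B47275, B52482 or any of the 3 Arid1a KO lines was left out, with values of -5.82 to -4.14, and it held without B48051. It was also lost without both shallow Smarcb1 KO lines, which share the fit, without the filter on low counts, and when the compared groups were fitted alone, each at -4.67. Hspb1 had 3.2, 8.3 and 1.71 CPM in Arid1a KO vehicle libraries and lay below all Braf vehicle libraries, but the difference of -1.7 ± 1.05 was not called. Hspb2 behaved alike, with 1.03, 2.02 and 0.555 CPM and -1.74 ± 0.86. Hspb7 was above all Braf vehicle libraries, at 0.671, 0.404 and 0.341 CPM in Arid1a KO lines against 0, 0 and 0.206 CPM in Braf lines, and was not called at 2.71 ± 1.62. Cryab overlapped at 63.4, 52.2 and 145 CPM, with -1.19 ± 0.53, and Hspb6 at 12.2, 11.9 and 8.66 CPM, with -0.88 ± 0.54. The median over the 6 members was -1.44, beside -0.01 over all genes.

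Under CKI no member was called between Arid1a KO and Braf lines, where 0.736% of all genes were called. Cryab had 83.4, 178 and 83.2 CPM in Arid1a KO lines and lay below all Braf lines, at -1.82 ± 0.54. It was called lower with DESeq2, at -1.84, and when B52482 was left out, at -2.08. Hspb8 had 2.38, 8.11 and 3.19 CPM in Arid1a KO lines under CKI, with a difference of -2.69 ± 1.12 and overlapping groups. The members' median was -0.77, beside -0.02 over all genes. The 7 fibroblast markers summed to 1310 to 3650 CPM in Arid1a KO vehicle libraries, against 5.46 to 174 CPM in Braf vehicle libraries. The 5 epithelial markers were lower without overlap, at 316 to 335 CPM in Arid1a KO against 1320 to 5600 CPM in Braf libraries in vehicle, and at 9.02 to 19.2 CPM against 208 to 6450 CPM under CKI. The part of both lists in these differences was not tested.

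Arid2 KO lines showed no called member against Braf lines in vehicle, where 0.0512% of all genes were called, or under CKI, where 0.064% were called. Every member's groups overlapped in both arms. Cryab had 70.6, 173 and 165 CPM in vehicle libraries of Arid2 KO lines AB51189, AB52980 and AB55694, a difference of -0.54 ± 0.53 from Braf, and 156, 257 and 413 CPM under CKI, at -0.56 ± 0.53. Hspb8 had 47.7, 7.96 and 28.2 CPM in vehicle and 67.4, 21.5 and 44.9 CPM under CKI, with differences of 0.09 ± 1.05 and 0.59 ± 1.05. Hspb1 was at 18.7, 4.5 and 4.83 CPM in vehicle and 50.3, 14.2 and 17 CPM under CKI, where AB51189 was the highest of the 24 tumor libraries. With an SE of about 1 log2 unit for Hspb1 and Hspb8, differences well over 1 log2 unit could also go uncalled here. The members' medians were -0.22 in vehicle and 0.41 under CKI, beside -0.01 and 0.01 over all genes.

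Line AB52980 stood apart for Hspb3, which encodes a muscle protein that forms mixed oligomers with Hspb2. It was counted in only 2 of the 24 tumor libraries, both of this line, with 48 counts (2.14 CPM) under CKI and 6 counts (0.25 CPM) in vehicle. The WT libraries had 2.48, 0.501 and 2.58 CPM. Skeletal muscle transcripts were also far higher in this line than in the others: 12 markers summed to 2480 CPM in its CKI library and 263 CPM in its vehicle library, against 1.14 to 14 CPM in the other 22 tumor libraries, and 11 of the 12 were over 1 CPM in the CKI library. The 5 cardiac muscle markers summed to 395 CPM in the CKI library and 41.9 CPM in the vehicle library of this line, against at most 39.5 CPM in the other tumor libraries. The part of these transcripts in its Hspb3 level was not tested.

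CKI was accompanied by more Cryab in 11 of the 12 lines. Over all 12 lines 2 of the 6 members tested, Cryab and Hspb7, were called higher and none lower, where 27.2% of all genes were called. The median of the 6 members was 1.42, beside 0.03 over all genes. Cryab averaged 211 ± 174 CPM under CKI and 106 ± 89.8 CPM in vehicle (SD, n = 12 lines each), with a fitted change of 1.51 ± 0.27. The fitted value is the mean of the log2 changes of the 4 genotypes, not the ratio of these averages. Those changes were 3.56 in Smarcb1 KO, 0.41 in Arid1a KO, 1.02 in Arid2 KO and 1.05 in Braf lines. Smarcb1 KO thus raised the mean above the change of every other genotype. The labels name the same line in both arms, and with the line as a replicate block 4 members were called higher: Cryab with Hspb1 (1.44), Hspb2 (1.08) and Hspb6 (0.39). In that paired fit Hspb7 (2.76) was not called. The comparisons by genotype share these libraries with the comparison over all lines. The 9 smooth muscle markers summed to 331 to 977 CPM under CKI and 123 to 129 CPM in vehicle in Braf lines, and to 89.2 to 1420 CPM under CKI and 26.8 to 50.4 CPM in vehicle in Arid2 KO lines. In Arid1a KO lines they stood at 72.1 to 394 CPM under CKI and 131 to 149 CPM in vehicle, and in Smarcb1 KO lines at 21.3 to 286 CPM under CKI and 21.9 to 292 CPM in vehicle. The 7 fibroblast markers summed to 514 to 1140 CPM under CKI and 20.2 to 32.4 CPM in vehicle in Arid2 KO lines, without overlap. In Smarcb1 KO, Arid1a KO and Braf lines they overlapped, at 14.9 to 112, 1900 to 6740 and 21.9 to 2060 CPM under CKI. Their vehicle levels in those lines were 6.41 to 666, 1310 to 3650 and 5.46 to 174 CPM. Paired by line, they were higher under CKI in each of the Braf lines B47275, B48051 and B52482. There they stood at 1440, 21.9 and 2060 CPM under CKI, against 32.2, 5.46 and 174 CPM in vehicle. Smarcb1 KO and Arid1a KO lines moved in both directions. The 5 epithelial markers were lower under CKI in Arid1a KO lines, at 9.02 to 19.2 CPM against 316 to 335 CPM in vehicle. The part of these lists in the member changes was not tested.

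**Figure D3:**
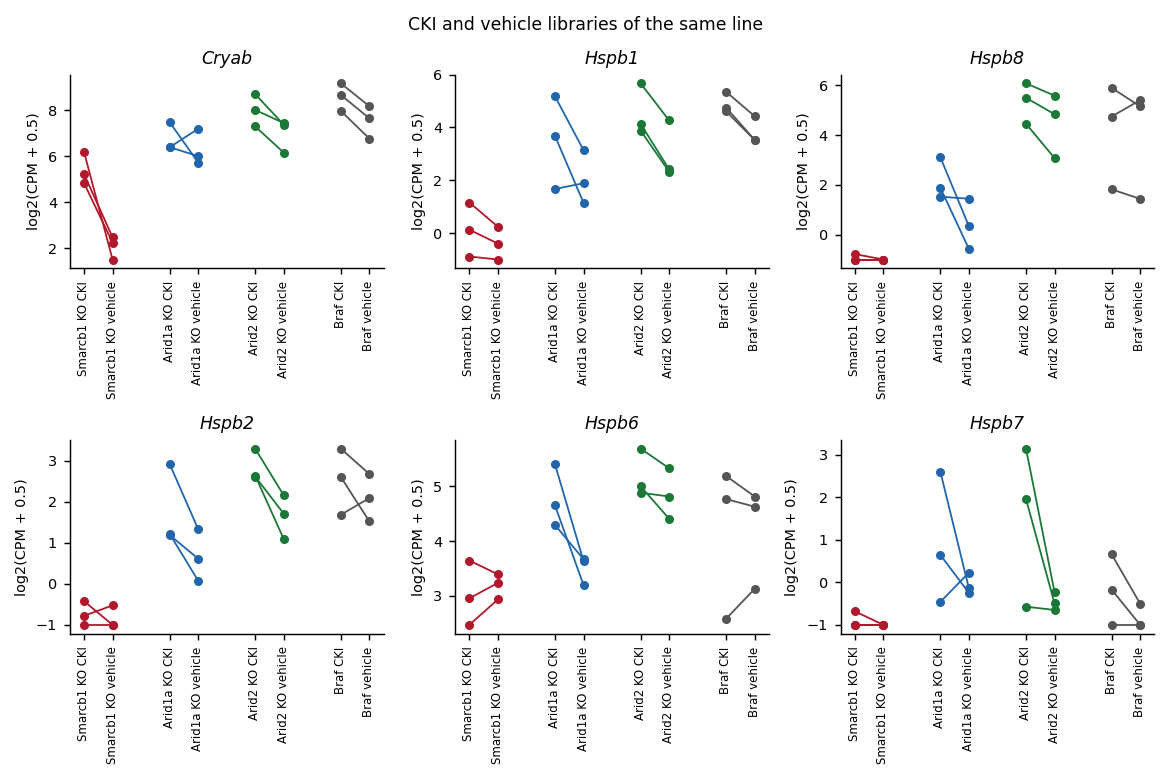
Level as log2(CPM + 0.5) of 6 members in the CKI library (left) and vehicle library (right) of each of the 12 lines, joined by a line and coloured by genotype. Cryab is higher under CKI in 11 lines, with the steepest slopes in the 3 Smarcb1 KO lines, and lower in 1 Arid1a KO line.

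In Smarcb1 KO lines Cryab was the called member, 1 of 6, where 0.032% of all genes were called. Its ratio of CKI to vehicle was 31.1 in BS53736, 7.27 in BS53958 and 6.61 in BS53965, from the levels given above. The groups did not overlap, and the change was 3.56 ± 0.59. Leaving out any 1 of the 3 lines lost the call, with changes of 2.79 to 3.94. Leaving out both shallow lines lost it as well, at 4.97 from BS53736 alone, and so did dropping the filter on low counts (3.51) or fitting the compared groups alone (3.57), while the blocked fit kept it. The other members stayed at or near 0 or were level: Hspb6 had changes of both signs, and Hspb1, Hspb2, Hspb7 and Hspb8 together held 35 counts in the 3 CKI libraries. The median over the 4 members with more than 3 counts in either arm was 1.22, beside 0 over all genes.

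In Braf lines no gene at all was called between CKI and vehicle, which is 0% of 15634, although 1744 had an unadjusted p under 0.05, DESeq2 called 315 genes and the blocked fit called 388. Neither of these called a member. Cryab ratios were 2.02, 1.99 and 2.32 in B47275, B48051 and B52482, with overlapping groups and a change of 1.05 ± 0.53. Hspb1 was higher in all 3 lines, by 1.92 to 2.39-fold, and its CKI libraries all lay above its vehicle libraries, at 1.08 ± 1.03. Hspb8 had ratios of 0.629 to 1.69 and changed by 0.17 ± 1.05. The median of the 6 members was 0.8, beside 0.02 over all genes.

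In Arid1a KO lines no member was called, where 13.9% of all genes were called. Hspb6 had 19.1, 41.7 and 24.6 CPM under CKI, against 12.2, 11.9 and 8.66 CPM in vehicle, and Hspb8 had 2.38, 8.11 and 3.19 CPM under CKI, against 2.22, 0.762 and 0.171 CPM in vehicle. Neither pair of groups overlapped, with changes of 1.4 ± 0.54 and 2.13 ± 1.13. With the line as a replicate block both were called higher, at 1.34 and 2.37, and so was Hspb1, at 1.64. BA49112 was the only line of the 12 with less Cryab under CKI, with 83.2 CPM under CKI against 145 CPM in vehicle. Among the 10 lines with more than 3 counts of Hspb1 in both arms, only BA45198 had less under CKI. It had 2.68 CPM under CKI against 3.2 CPM in vehicle. BA47473 had the highest CKI level of the 3 lines for all 6 members.

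In Arid2 KO lines no member was called, where 0.141% of all genes were called. Hspb1 was higher under CKI in all 3 lines, by 2.69 to 3.52-fold, with a change of 1.54 ± 1.04, and was called higher at 1.64 with the replicate block. Hspb2 had 5.62, 5.72 and 9.31 CPM under CKI, against 2.77, 1.63 and 3.96 CPM in vehicle, and the groups did not overlap. Hspb7 had 8.34, 3.39 and 0.172 CPM under CKI, against 0.352, 0.208 and 0.137 CPM in vehicle, so that 2 of the 3 lines carried the change of 4.06 ± 1.54. Cryab ratios of 1.48 to 2.51 gave a change of 1.02 ± 0.53.

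Hspb7 was called over all 12 lines, at 3.17 ± 0.92, but it was low throughout. Its highest tumor level was 8.34 CPM, it was at 0 in 8 of the 24 tumor libraries, and it averaged 1.7 ± 2.7 CPM under CKI and 0.193 ± 0.215 CPM in vehicle (SD, n = 12 lines each). The size of its fitted change depends on the groups at 0. The call was lost when BA47473 was left out (2.68), when BS53736 was left out (2.27) and without both shallow lines (3.4). Hspb2, at 1.14 ± 0.45, was not called over all 12 lines and was called without BS53958, at 2.11, and with DESeq2, at 1.2. Without both shallow lines its change was 2.23. The only Smarcb1 KO vehicle counts of Hspb2, 4 in all, were in BS53958. Without that line this group is at 0, so the sizes 2.11 and 2.23 do not measure a larger response. Hspb1 had more CPM under CKI in 11 of 12 lines, at 1.47 ± 0.54 and not called. Only 10 lines had more than 3 counts of it in both arms. BS53736 had 1 count under CKI against 0 in vehicle, and BS53965 had 2 against 6, which is higher only by CPM. Hspb1 was called under RLE size factors, total counts and DESeq2 at 1.49 to 1.52. Hspb6 changed by 0.46 ± 0.27 and Hspb8 by 1.36 ± 1.02. Part of the Hspb8 value comes from Smarcb1 KO lines, which held 1 count of it under CKI and 0 in vehicle. The size of the Hspb8 value is therefore not a measured fold.

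The CKI response of no member was called different between a knockout and Braf. For each of the 3 knockouts 0% of all genes were called. At an unadjusted p under 0.05 there were 801 genes for Arid1a KO, 124 for Arid2 KO and 659 for Smarcb1 KO. DESeq2 called 37, 7 and 44 genes, and the blocked fit 23, 0 and 5, none of them a member. Cryab had the widest gap, with a response in Smarcb1 KO lines that exceeded that in Braf lines by 2.52 ± 0.76. For Arid1a KO the gap was -0.64 ± 0.74 and for Arid2 KO -0.02 ± 0.74.

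Braf vehicle libraries had much less Hspb7, Hspb6 and Hspb3 than WT libraries. Hspb6 and Hspb7 were called lower and no member higher, where 46.5% of 16821 genes were called. Hspb3 was called lower too, but it passed the filter only through the WT libraries in which it is high. Its entry to the test was thus selected by the difference itself, and its call is not counted. Scaling by RLE or by total counts moved the median of all genes by -0.16 or 0.17, and left these calls and the direction of all 7 members in place. WT libraries hold RNA of several cell types, and fewer cells of a type and less RNA per cell cannot be told apart in them.

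Hspb7 had 0, 0 and 0.206 CPM in Braf vehicle libraries, against 31.7, 23.6 and 53 CPM in WT libraries, a difference of -8.95 ± 1.79 that rests on 4 counts in Braf. Hspb6 had 27.6, 8.24 and 24.2 CPM in Braf vehicle libraries, against 67.4, 45.5 and 95.8 CPM in WT libraries, at -1.8 ± 0.54. Hspb3 had no count in Braf vehicle libraries, against 106 counts in the WT libraries, and was at least 36.9-fold lower. Its call was lost with DESeq2, without the filter and when any of the 6 libraries was left out. Skeletal muscle markers summed to 2.11 to 5.92 CPM in Braf vehicle libraries, against 2320 to 4740 CPM in WT libraries, and their part in these differences was not tested.

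Hspb1, Hspb2 and Hspb8 also lay below all WT libraries in Braf vehicle libraries, but were not called. How many of all genes lay apart in this way was not counted. Hspb8 had 82.5, 137 and 93.8 CPM in WT libraries, and the difference of Braf vehicle from WT was -1.98 ± 1.01. Hspb1 had 27.2, 35.6 and 31.7 CPM in WT libraries, with a difference of -1.14 ± 0.96, and Hspb2 had 8.75, 5.97 and 8.59 CPM, with -0.95 ± 0.78. Hspb1 was called lower, at -1.18, when only these groups were fitted. Cryab overlapped: it had 200, 288 and 108 CPM in Braf vehicle libraries, against 120, 133 and 165 CPM in WT libraries, at 0.51 ± 0.5.

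Per kilobase of exon, with lengths from an annotation of another build than the counts, Cryab was the highest member in both groups, at 135 CPM per kb in Braf vehicle and 94 in WT. In Braf vehicle Hspb1 (13.9 CPM per kb) and Hspb8 (13.6) followed at nearly the same level, then Hspb6 (8.7) and Hspb2 (4.81), with Hspb7 (0.0248) and Hspb3 (0) last. In WT the order after Cryab was Hspb8 (53.3 CPM per kb), Hspb1 (30.6), Hspb6 (30.3), Hspb7 (13), Hspb2 (9.32) and Hspb3 (2.37). The library ranges of neighbours in the order overlapped in Braf vehicle from Hspb1 down to Hspb2 and for Hspb7 and Hspb3, and in WT for Hspb1 and Hspb6 and for Hspb7 and Hspb2.

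Of 39 other chaperone genes, 4 were called in Smarcb1 KO against Braf vehicle libraries, where 18.1% of all genes were called. The list of 39 held Hsf1 and Hsf2 with Hsp70, Hsp90, Hsp60 and Hsp40 chaperones and their co-chaperones, and all 39 were tested. In vehicle 2 were higher, 2 were lower and 35 did not pass the test. Fkbp5, a co-chaperone of Hsp90 that is induced by glucocorticoids, averaged 193 ± 67.2 CPM in Smarcb1 KO lines, against 10.8 ± 3.35 CPM in Braf lines, both in vehicle (SD, n = 3 lines each), a change of 4.16 ± 0.71 with an edgeR adjusted p of 0.00125. Dnaja4, a co-chaperone of the Hsp40 family, fell by 3.36 on the log2 scale (adjusted p = 0.00741, edgeR), to 1.21 ± 1.35 CPM in Smarcb1 KO, against 12.3 ± 5.78 CPM in Braf. Hspa2, an Hsp70 known from the testis, was lower as well (-1.32 ± 0.39, edgeR adjusted p = 0.028). The constitutive Hsp70 Hspa8 was the other gene called higher (0.56 ± 0.17, edgeR adjusted p = 0.0283). The median of the 39 was -0.02, equal to that of all genes.

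Under CKI 7 of the 39 were higher in Smarcb1 KO than in Braf lines and 3 were lower, beside the 23.1% of all genes called there. Fkbp5 had 153 ± 122 CPM in Smarcb1 KO lines, against 8.46 ± 4.53 CPM in Braf lines (SD, n = 3 lines each), a change of 4.17 ± 0.71 with an edgeR adjusted p of 0.00114. Hspa1a, a stress-induced Hsp70, fell by 1.8 (adjusted p = 0.0061) and Dnaja4 by 3.45 (adjusted p = 0.00641, edgeR). Hspa1a shares nearly all of its sequence with Hspa1b, so that its counts are uncertain. With both shallow lines left out 2 of the 39 were called higher and 1 lower, and with any 1 of B47275, B52482 and the Smarcb1 KO lines left out 2 to 4 were called higher. When only the compared groups were fitted, 1 was called higher and 0 lower. No gene of the list was called for Arid1a KO or Arid2 KO against Braf in either arm, apart from 3 called higher in Arid1a KO vehicle libraries once B52482 was left out.

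**Figure D4:**
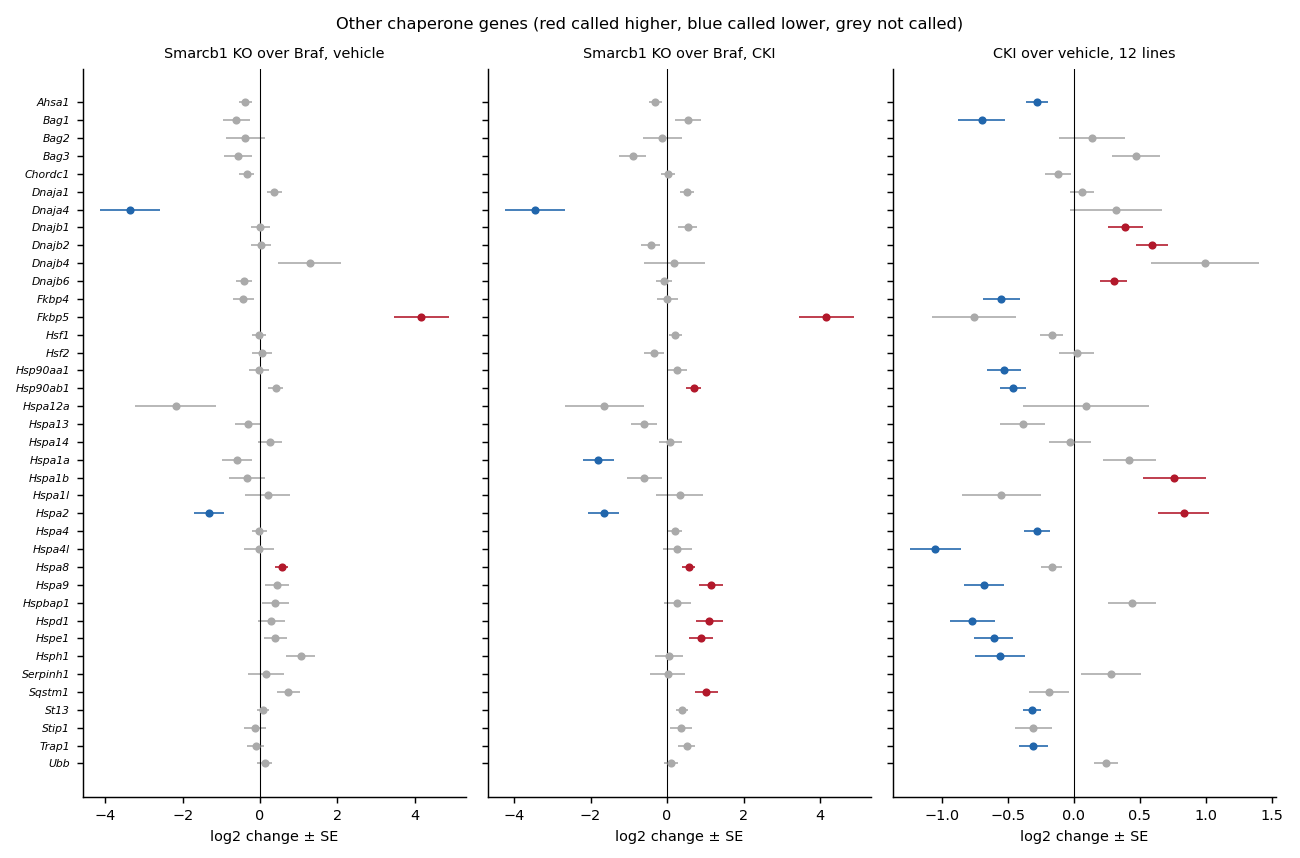
Fitted log2 change ± SE of other chaperone genes of the list in 3 comparisons, red where called higher, blue where called lower and grey where not called; the axes of the panels differ. Fkbp5 is higher and Dnaja4 lower in Smarcb1 KO lines in both arms, and 13 genes are lower under CKI over all 12 lines.

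Over all 12 lines CKI was accompanied by lower levels of 13 of the 39 genes and higher levels of 6, beside the 27.2% of all genes called there. Hspa4l, an Hsp110-type nucleotide exchange factor, averaged 68.8 ± 29.3 CPM under CKI and 137 ± 35.3 CPM in vehicle (SD, n = 12 lines each) and fell by 1.05 (edgeR adjusted p = 0.00112). Dnajb2, a neuronal Hsp40, was higher by 0.59 ± 0.12 (edgeR adjusted p = 0.00266). With the replicate block 10 of the 39 were called higher. In Arid1a KO lines alone, where 13.9% of all genes were called, 3 rose and 6 fell under CKI: Dnajb2 rose by 1.15 ± 0.25 (edgeR adjusted p = 0.00721), Hsp90ab1, a constitutive Hsp90, fell by 0.87 (edgeR adjusted p = 0.00967), and Bag1, a co-chaperone of Hsp70, fell by 1.47 (edgeR adjusted p = 0.0138). Without BA45198, BA47473 or BA49112 the count of rises was 0, 0 or 1 and that of falls 1, 1 or 0. None of the 39 was called under CKI in Braf, Arid2 KO or Smarcb1 KO lines, while the blocked fit called 1 higher and 1 lower, 2 higher and 2 lower, and 1 higher in these genotypes.

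In Braf vehicle libraries 16 of the 39 were higher than in WT libraries and 5 were lower, beside the 46.5% of all genes called there. Hspa8 averaged 1240 ± 204 CPM in Braf and 465 ± 37.7 CPM in WT (SD, n = 3 each), a change of 1.42 ± 0.16 with an edgeR adjusted p of 2.6e-06. Hspa4 (1.17 ± 0.19, edgeR adjusted p = 7.2e-05) and Hsp90ab1 (1.16 ± 0.19, edgeR adjusted p = 9.54e-05) were higher too. Without B47275 the count of genes called lower was 3. The median of the 39 was 0.5, beside 0.02 over all genes.

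Hsf1, the main activator of heat shock genes, and Bag3, the partner of Hspb8, were called in none of the 15 comparisons. In Smarcb1 KO against Braf vehicle libraries Hsf1 differed by -0.02 ± 0.18 (edgeR adjusted p = 0.945) and Bag3 by -0.57 ± 0.35 (edgeR adjusted p = 0.273). Under CKI over all 12 lines Bag3 averaged 135 ± 42.7 CPM, against 97.1 ± 27 CPM in vehicle (SD, n = 12 lines each), a change of 0.47 ± 0.18 with an edgeR adjusted p of 0.0546. Hsf1 changed by -0.17 ± 0.09 there (edgeR adjusted p = 0.162).

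The genes with the most similar pattern were sought for each member counted in enough libraries, by Spearman's rho over the 24 tumor libraries among 11280 genes. Cryab was most like Epha4 (0.934), Trim3 (0.905) and Mapk4 (0.893), and Hspb1 most like Basp1 (0.939), Cobl (0.927) and Col4a4 (0.92). Hspb8 was closest to Fhod1 (0.927), Irf8 (0.918) and Fer1l5 (0.898), and Hspb6 to Myct1 (0.902), Fhod1 (0.869) and Col5a1 (0.856). Hspb2 was nearest to Aldh3b1 (0.902), Tpm1 (0.899) and Ptprf (0.896). These values describe likeness only: the 24 libraries are pairs from 12 lines, and the 6 Smarcb1 KO libraries are low together for most members.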

How the data were processed

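RNA isolation used TRIzol and library preparation a TruSeq kit, per the labels' protocols. The table holds unnormalized counts for each gene symbol, as the authors deposited it. The submitters' processing notes name mm9, STAR 2.4, HTSeq 0.6.1 and DESeq2 without their roles. Annotation, strandedness and read filters: not given in the sources used here.

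Counts were fitted with edgeR 4.0.16 in R 4.3.3 (limma 3.58.1): filterByExpr by group, TMM scaling, 1 mean per group, quasi-likelihood F test, Benjamini-Hochberg adjustment over all genes. The 24 tumor libraries shared 1 fit (15634 genes), and Braf vehicle against WT used all 27 libraries (16821 genes). P-values measure the spread between libraries within groups, which come from different lines or, for WT, different replicates. The CKI and vehicle libraries of a line were treated as independent, except in the fit with the line as a replicate block. For CKI against vehicle the p-values of the main fit therefore do not measure the spread of the response between lines.

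The members, gene lists and tests were chosen with earlier results of these data known. Named are all members, Hsf1, Bag3, up to 3 called chaperone genes per comparison with the smallest adjusted p, Hspa8 in Smarcb1 KO vehicle as an addition after its values were seen, and the 3 nearest patterns per member with at least 10 counts in 12 libraries. CKI and vehicle libraries pair by line, per the labels; deviations of the same line from the group means correlated at 0.246 to 0.779 in all 12 lines. Alternatives were RLE size factors, total counts, no filter, only the compared groups, lines left out, DESeq2 1.42.0 and the line as a replicate block. A gene of the chaperone list is counted but not reported here by name.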

Additional observations from a re-analysis of the deposited data

How the results depend on the processing

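No member value that was called in the reported fit or under an alternative changed sign between them. Sign changes of values called in neither were not counted. RLE size factors and total counts changed 1 of 91 values each, the call of Hspb1 under CKI over all 12 lines. The other settings moved the counts of called genes. With no filter on low counts, the members called were 0 for Hspb8 in Arid1a KO against Braf vehicle and 0 for CKI in Smarcb1 KO lines, and 1 chaperone gene was called higher in Smarcb1 KO against Braf vehicle. Fitting the compared groups alone, Smarcb1 KO against Braf vehicle kept 1 member called lower, Cryab, with 1 chaperone gene higher and 0 lower. Arid1a KO against Braf vehicle had 0 members called, and Smarcb1 KO against Braf under CKI lost the call of Hspb1. For CKI against vehicle, Arid1a KO lines had 1 member called (Hspb6) and Smarcb1 KO lines 0 in that setting. For the comparison over all 12 lines that setting is the fit as reported, so it gives no other value. Without lines BS53958 and BS53965, members called lower were 2 (Hspb1 and Hspb2) in Smarcb1 KO under CKI and 0 in Arid1a KO vehicle, no member was called for CKI in Smarcb1 KO lines (0), and in Smarcb1 KO vehicle 1 chaperone gene was higher and 0 lower; the lone Smarcb1 KO line is then assumed to vary like the other groups. With DESeq2, members called were 1 lower in Arid1a KO under CKI, 1 higher under CKI in Arid1a KO lines and 4 higher over all 12 lines, with 10 chaperone genes higher. The paired fit with the cell line as a replicate block (8 residual degrees of freedom) called 3 members higher in Arid1a KO lines, 1 in Arid2 KO lines and 4 over all 12 lines, with 10 chaperone genes higher; it lost the call of Hspb7 and changed no other call of a member beyond those given in the report. With each line left out in turn, the members called ranged from 0 to 1 in Arid1a KO vehicle, 0 to 1 in Arid1a KO under CKI, 0 to 0 for CKI in Smarcb1 KO lines and 1 to 3 over all 12 lines. The chaperone genes called in Smarcb1 KO vehicle ranged from 1 to 2 higher and 1 to 2 lower, and those higher over all 12 lines from 3 (without B52482, BA47473, BA49112 or BS53736) to 7. The cause of these moves was not tested, apart from the fewer samples in each fit. In BS53965 CKI, the shallowest library, a gene under 0.89 CPM cannot be told from 0.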

Other observations

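The 4 further family entries in the table, outside the members, are given as levels in the tumor libraries. Cryaa, the lens alpha-A crystallin, and Odf1, a sperm tail protein, had at most 1 count in any of them. Hspb9, known from the testis, was at 0.0416 to 0.635 CPM. Hspb11, a subunit of intraflagellar transport also called Ift25, was at 4.99 to 22 CPM and had at least 10 counts in all 24. It had 18.9, 14.8 and 16.6 CPM in Smarcb1 KO vehicle libraries, against 7.46, 5.46 and 12.2 CPM in Braf vehicle libraries, and 22, 13.1 and 13.6 CPM in Smarcb1 KO CKI libraries, against 5.89, 4.99 and 8.62 CPM in Braf CKI libraries. The Smarcb1 KO libraries lay above the Braf libraries in both arms. So did those of Arid2 KO, at 15.8, 17 and 12.8 CPM in vehicle and 16.1, 12 and 12.7 CPM under CKI. Arid1a KO libraries also lay above Braf under CKI, at 10.6, 11.2 and 19 CPM. In vehicle they overlapped with Braf, at 8.51, 19.2 and 17 CPM. No test of these differences is given.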
